A study of Homo sapiens with 10 samples.

Results

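The endoplasmic reticulum (ER) chaperone and unfolded protein response (UPR) genes followed here are 10 genes picked by symbol, HSPA5, HSP90B1, CALR, PDIA4, PDIA6, DNAJB9, DNAJC3, SDF2L1, XBP1 and HERPUD1, out of 11258 transcripts present in both the RNA-Seq and the Ribo-Seq table. The choice is by name and takes no measured value as a criterion, but it was made with earlier results of these data known. BJ cells, human fibroblasts made immortal with telomerase (hTERT), were either left as an untreated control or kept on nutlin-3a for 2, 4, 6 or 19 h. Nutlin-3a frees p53 from its inhibitor MDM2, and the series asks what active p53 does to the amounts of transcripts and to their translation. Poly(A) RNA was sequenced for RNA-Seq, and ribosome-protected fragments from pooled monosome fractions were sequenced for Ribo-Seq. Each condition was 1 library per assay from 1 cell line, so no difference has a replicate check, and the errors given cover read counting only.

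The ER folds proteins that are secreted or inserted into membranes. Its Hsp70 and Hsp90 chaperones, lectin chaperones and protein disulfide isomerases (PDIs) bind, fold and cross-link new chains, and fibroblasts, which secrete collagen, use this machinery heavily. When unfolded chains accumulate, the sensors IRE1 (gene ERN1), ATF6 and PERK (gene EIF2AK3) start the UPR. IRE1 splices XBP1 mRNA, cleaved ATF6 moves to the nucleus, and PERK lowers general translation while favouring ATF4, which in turn induces CHOP (gene DDIT3). ATF6 and spliced XBP1 act through promoter motifs known as ER stress response elements.

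These elements are shown first because 7 of the 10 genes carry an exact match close to their transcription start. The ERSE motif (CCAAT, any 9 bases, CCACG) and the ERSE-II motif (ATTGG, any 1 base, CCACG) were searched on both strands of RefSeq promoter windows (GRCh38.p14, 250 bases before to 50 after each start). Each match is printed 5′ to 3′ on its own strand with 5 bases on either side, and capitals mark the fixed letters of the motif.
HSPA5, ERSE, chr9:125241386-125241414, minus strand: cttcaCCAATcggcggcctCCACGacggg
HSP90B1, ERSE, chr12:103930211-103930239, plus strand: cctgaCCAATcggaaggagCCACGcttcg
HSP90B1, second ERSE, chr12:103930316-103930344, minus strand: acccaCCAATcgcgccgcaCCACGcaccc
CALR, ERSE, chr19:12938379-12938407, minus strand: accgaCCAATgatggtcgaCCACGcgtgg
PDIA6, ERSE, chr2:10812848-10812876, minus strand: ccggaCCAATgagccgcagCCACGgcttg
XBP1, ERSE, chr22:28800598-28800626, minus strand: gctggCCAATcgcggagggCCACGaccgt
HERPUD1, ERSE-II, chr16:56932020-56932040, plus strand: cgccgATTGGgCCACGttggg
SDF2L1, ERSE-II, chr22:21642109-21642129, minus strand: ttttgATTGGtCCACGcttcc

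All 8 matches lay upstream of a start, the nearest in XBP1 (34 to 52 bases) and the farthest in CALR (207 to 225 bases). Of 35116 promoter windows, 27 (0.0769%) held an ERSE and 19 (0.0541%) an ERSE-II, and of 27305 genes 25 carried an ERSE, 19 an ERSE-II and 44 either, so that no gene had both. With 1 mismatch allowed in the 10 fixed letters of the ERSE, 8 of the 10 genes and 1.55% of all windows had a match, DNAJC3 being the gene added to the 7. DNAJB9 and PDIA4 had neither motif in these windows, which says only that these letters were not in them. A match is a description of the sequence and was not tested for binding. Both motifs are known elements of the UPR, and the 10 genes were picked as chaperone and UPR genes. The share of matches among them is therefore not an independent finding.

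Levels were compared as FPKM, fragment numbers scaled for transcript length and for the total of the library. The RNA-Seq libraries were scaled to 23845558 to 27554289 reads and the Ribo-Seq libraries to 7744900 to 14460726, totals worked out from the steps between FPKM values, and every value of the 10 genes lay within 0.041 of a whole read. The 10 genes ran from 865 nt (SDF2L1) to 3908 nt (HSPA5) in transcript length, with a median of 2296 nt against 2601 nt for all tested genes. Tested genes were the 7015 that reached 5 FPKM in both assays, in 1 library or more of each, and all 10 were among them. DNAJB9 passed in Ribo-Seq only through its treated libraries (6.71 to 8.26 FPKM, against 4.82 FPKM in the control). Its higher density is therefore not independent of this filter. All 9 fibroblast markers were expressed (RNA 55.5 to 4337 FPKM). Of 10 markers of epithelial, leukocyte, endothelial, melanocyte and muscle cells, CD68 (61.4 to 86.4 FPKM) was the only one to reach 1 FPKM in RNA-Seq. The p53 targets CDKN1A, an inhibitor of cyclin-dependent kinases, and MDM2 were higher in each treated library, CDKN1A RNA going from 68.6 FPKM in the control to 1316 FPKM at 19 h and MDM2 RNA from 14.9 to 259 FPKM. Fewer cells of a type and less RNA per cell cannot be told apart in such bulk samples, and with 1 transcript counted per gene the spliced and unspliced forms of XBP1 were not separated.

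Most of the chaperones were at their control RNA level through 4 h of nutlin-3a and higher at 6 h, whereas XBP1 and HERPUD1 were higher by 2 h. DNAJB9 was also higher at 2 and 4 h (1.25-fold and 1.39-fold), and more so at 6 h. In all, 8 of the 10 genes had their highest RNA level at 6 h and the other 2, XBP1 and HERPUD1, at 2 h. The share of RNA-Seq reads that fell on the 10 genes was 0.525%, 0.516% and 0.528% in the control and at 2 and 4 h, then 0.860% at 6 h and 0.705% at 19 h. In Ribo-Seq it was 0.553%, 0.682%, 0.578%, 1.02% and 0.886% in the same order, with a first, smaller step at 2 h that RNA did not show.

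**Figure D1:**
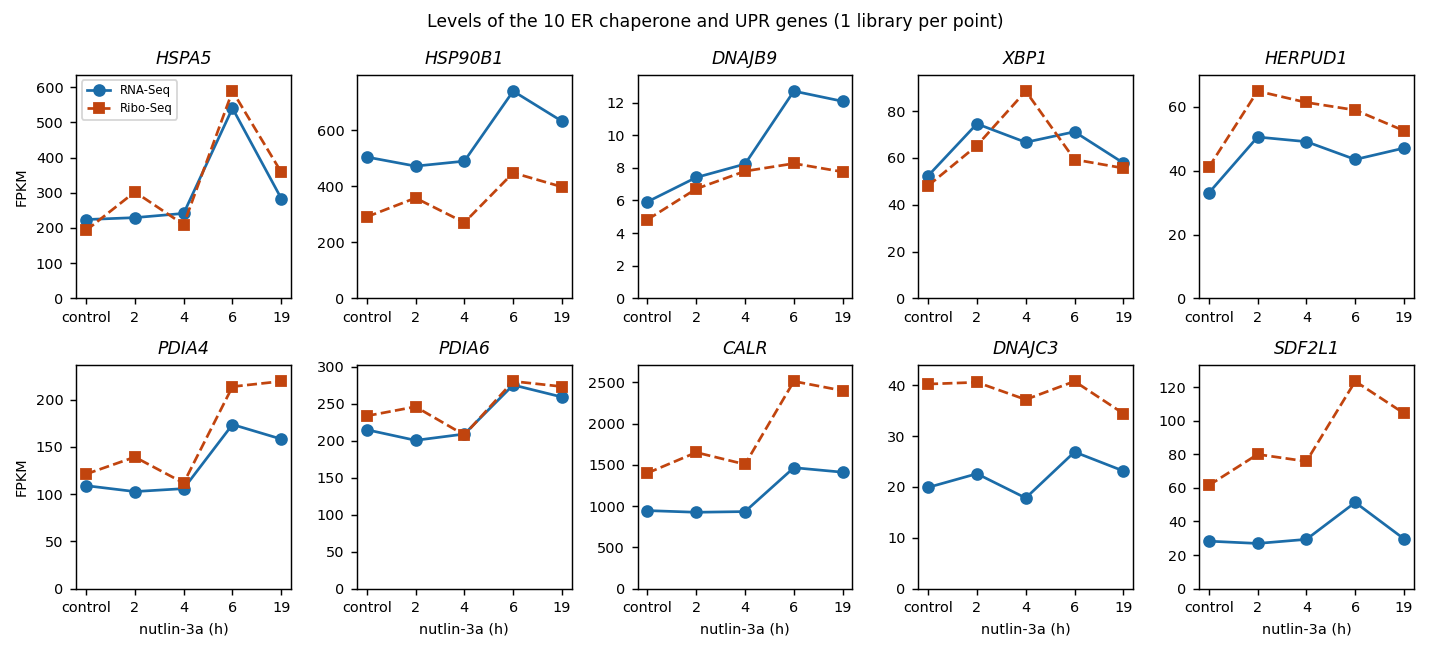
FPKM (linear axes from 0, a different scale in each panel) of the 10 genes in RNA-Seq (circles, solid lines) and Ribo-Seq (squares, dashed lines) in the control and after 2, 4, 6 and 19 h of nutlin-3a, with times evenly spaced and 1 library per point. HSPA5 stands at 224 to 241 FPKM of RNA up to 4 h and at 540.4 FPKM at 6 h, while XBP1 and HERPUD1 are already higher at 2 h.

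HSPA5 encodes BiP, the ER Hsp70 that binds unfolded chains and holds the UPR sensors inactive. Its RNA level was 224, 229 and 241 FPKM in the control and at 2 and 4 h, 540.4 FPKM at 6 h and 284 FPKM at 19 h. The 6 h library alone stood high, 2.41-fold over the control (log2 change 1.27, counting SE 0.012), and only 72 of the 7015 tested genes had a larger RNA change at that time. At 19 h the log2 change was 0.34, and from 6 to 19 h the level was 0.525-fold. Ribosome density, the Ribo-Seq FPKM, was 193, 302, 209.7, 589 and 358 FPKM in the same order of libraries. It was thus high at 2 h (1.57-fold), back near the control at 4 h (1.09-fold), highest at 6 h (3.05-fold, log2 change 1.61, counting SE 0.018) and still 1.86-fold at 19 h.

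HSP90B1 encodes GRP94, the ER Hsp90, which matures a narrow set of clients such as integrins and Toll-like receptors. Its RNA level was 505, 472 and 490 FPKM in the control and at 2 and 4 h, 740.0 FPKM at 6 h and 632 FPKM at 19 h. The 6 h change was 1.47-fold (log2 change 0.55, counting SE 0.0098), just below the 1.5-fold used here to call a gene higher or lower. Ribosome density was 291, 358, 271, 448 and 398 FPKM, so that 2 h stood above both the control and 4 h, as it did for HSPA5.

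CALR encodes calreticulin, the soluble lectin chaperone of glycoproteins, which also stores calcium. It had the highest level of the 10 in both assays, with RNA at 946, 925 and 934 FPKM in the control and at 2 and 4 h, 1466 FPKM at 6 h and 1411 FPKM at 19 h. Unlike HSPA5, it kept nearly its 6 h level at 19 h (1.55-fold and 1.49-fold over the control). Its ribosome density was 1401, 1651, 1507, 2514 and 2400.4 FPKM, 1.79-fold at 6 h and 1.71-fold at 19 h.

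PDIA4 and PDIA6 encode disulfide isomerases of the ER, and PDIA6 also acts on the sensor IRE1. PDIA4 RNA was 109, 103 and 106 FPKM in the control and at 2 and 4 h, then 174 and 158 FPKM at 6 and 19 h, with ribosome density at 121, 139, 112, 214 and 219 FPKM. PDIA6 RNA was 215, 200.5, 209, 275 and 259 FPKM in the 5 libraries, with density at 233, 246, 208, 280.3 and 273 FPKM. Both genes stood higher at 6 and 19 h than in any earlier library of either assay, PDIA4 by more (RNA 1.59-fold at 6 h, log2 change 0.67, counting SE 0.021) than PDIA6 (1.28-fold, 0.36, counting SE 0.016).

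The HSPA5 cofactors differed more among themselves. DNAJB9 encodes ERdj4, a J-domain protein that brings BiP to IRE1 and to degradation substrates, and it was the least abundant of the 10. DNAJB9 RNA was 5.92, 7.41, 8.23, 12.7 and 12.1 FPKM, higher in each treated library than in the control and 2.15-fold at 6 h (log2 change 1.10, counting SE 0.087). Its ribosome density, 4.82, 6.71, 7.79, 8.26 and 7.75 FPKM, was higher too but by less at 6 h (1.71-fold), and with 154 to 306 Ribo-Seq reads per library it had the widest counting error of the 10 (0.15 on the log2 scale). SDF2L1, part of a BiP complex with J-domain proteins that keeps clients soluble, had RNA at 28.3, 26.9, 29.3, 51.4 and 29.6 FPKM. Only its 6 h library was high in RNA (1.82-fold), while its ribosome density of 61.5, 80.0, 75.9, 124 and 104 FPKM was 2.01-fold at 6 h and remained 1.70-fold at 19 h. DNAJC3 encodes P58IPK, a BiP co-chaperone first described as an inhibitor of eIF2alpha kinases. Its RNA was 19.9, 22.6, 17.8, 26.9 and 23.1 FPKM, 1.35-fold at 6 h, but its ribosome density of 40.2, 40.6, 37.2, 40.8 and 34.4 FPKM was 1.01-fold at 6 h and 0.856-fold at 19 h, the only density of the 10 below the control at 19 h.

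XBP1, the transcription factor made active by IRE1, and HERPUD1, an ER membrane protein of the degradation machinery (ERAD) that takes misfolded proteins out of the ER, had the early pattern. XBP1 RNA was 52.4, 74.6, 66.7, 71.2 and 57.9 FPKM, 1.42-fold at 2 h (log2 change 0.51, counting SE 0.039) and 1.10-fold at 19 h. XBP1 ribosome density was 48.1, 65.3, 88.6, 59.3 and 55.7 FPKM, with its highest value at 4 h (1.84-fold), where RNA was 1.27-fold. HERPUD1 RNA was 33.0, 50.6, 49.1, 43.5 and 47.1 FPKM, so that all 4 treated libraries lay above the control, the 2 h library by 1.53-fold (log2 change 0.61, counting SE 0.047). HERPUD1 ribosome density of 41.1, 65.0, 61.4, 59.0 and 52.55 FPKM was likewise highest at 2 h (1.58-fold). XBP1 and HERPUD1 therefore stood apart from the other 8 in having their highest RNA level at 2 h. An early rise was not theirs alone, since DNAJB9 RNA had log2 changes of 0.32 and 0.48 at 2 and 4 h (XBP1 0.51 and 0.35). Both XBP1 and HERPUD1 carried a promoter motif of the same kinds as HSPA5, HSP90B1, CALR, PDIA6 and SDF2L1.

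Set against all tested genes, the 10 genes stood out most at 6 h. In RNA, 5 of the 10 (HSPA5, DNAJB9, SDF2L1, PDIA4 and CALR) were at least 1.5-fold higher at 6 h, where 5.74% of tested genes were, and none was 1.5-fold lower, where 11.6% were. At 2 h 1 gene (HERPUD1) was called higher in RNA against 2.08% of tested genes, at 4 h none against 3.51%, and at 19 h 1 (DNAJB9) against 7.13%. None of the 10 was called lower in RNA at 2, 4 or 19 h either, where 0.214%, 3.58% and 14.6% of tested genes were. The median RNA log2 change of the 10 was 0.0014, 0.018, 0.59 and 0.33 at 2, 4, 6 and 19 h, beside -0.045, -0.074, -0.0024 and -0.067 for all tested genes. All 10 lay above 0 and above the tested median at both 6 and 19 h, ranging from 0.36 (PDIA6) to 1.27 (HSPA5) at 6 h. Between 4 and 6 h 9 of the 10 were higher, all except HERPUD1, as were 55.6% of tested genes. These calls depended on the cut-off. At 2-fold HSPA5 and DNAJB9 alone were called at 6 h, a cut-off at which the share of tested genes was not worked out. A cut-off that slides with level, a principle taken from the study, was applied as a multiple of the local SD over windows of 500 genes. By this cut-off HSPA5 was the only one called at 6 h (1.63% of tested genes). XBP1 and HERPUD1 were called by it at 2 h (3.35%) and HERPUD1 at 4 h (3.51%).

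**Figure D2:**
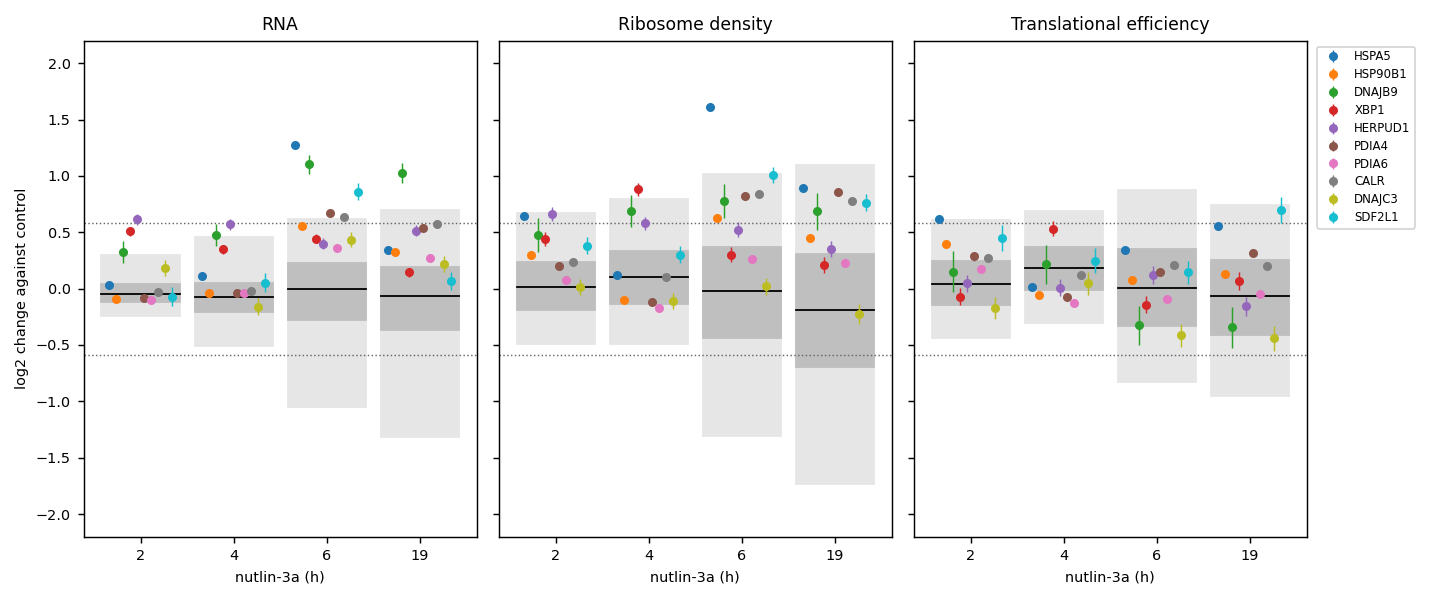
Log2 change against the control library of RNA, ribosome density and TE for the 10 genes at 2, 4, 6 and 19 h of nutlin-3a, with bars for 1 counting SE. Dark and light grey boxes hold the central 50% and 90% of the 7015 tested genes, black lines their medians and dotted lines 1.5-fold. All 10 genes lie above the median of tested genes in RNA at 6 and 19 h, and HSPA5 at 6 h is the highest of the 10 in RNA and in density.

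Ribosome density gave larger counts, beside larger shares of all genes. At 2 h 2 of the 10 (HSPA5 and HERPUD1) were called higher against 6.96% of tested genes, at 4 h 2 (DNAJB9 and XBP1) against 10.4%, at 6 h 6 (HSPA5, HSP90B1, DNAJB9, PDIA4, CALR and SDF2L1) against 15%, and at 19 h 5 (the same without HSP90B1) against 15%. DNAJB9, among those called at 4, 6 and 19 h, reached 5 FPKM in Ribo-Seq only in treated libraries. No density of the 10 was 1.5-fold lower at any time, whereas 2.72%, 3.26%, 19% and 29.8% of tested genes were at 2, 4, 6 and 19 h. The median density log2 change of the 10 was 0.34, 0.11, 0.70 and 0.57, beside 0.016, 0.10, -0.020 and -0.19 for all tested genes. From 2 to 4 h density was lower in 8 of the 10, the exceptions being DNAJB9 and XBP1, and from 4 to 6 h it was higher in 8, the exceptions being XBP1 and HERPUD1. Of all tested genes 41.8% were lower in the first of these steps and 37% higher in the next.

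Transcript length and library composition moved with the density values. Across tested genes the density change varied by 0.15, -0.0011, 0.12 and 0.17 on the log2 scale per doubling of transcript length at 2, 4, 6 and 19 h, and their part in the results was tested only by removing the trend. Without it the density medians of the 10 were 0.39, 0.11, 0.69 and 0.55, and the density of HSPA5 at 2 h (0.56 against 0.65) fell below 1.5-fold while that of SDF2L1 (0.62) passed it, as did the TE of SDF2L1 at 2 h (0.62). Taking the 2 most abundant Ribo-Seq transcripts out of the library totals made the medians 0.21, -0.0497, 0.58 and 0.53 and left none of the 10 called higher at 2 h. These 2 were ZNF354B and TMC5. ZNF354B stood at 47041.5, 16164.9, 10986.7, 18169.2 and 39889.6 FPKM in the control and at 2, 4, 6 and 19 h. TMC5 stood at 3149, 4154, 3005, 4016 and 2788 FPKM. What their reads came from was not tested. The methods of the study describe an effect of sequencing run and set each condition against a control of its own run. The labels name no run, and the run list of the study as used here holds the 6 and 19 h libraries but not those of 2 and 4 h, so that run and time cannot be told apart, least of all at 2 and 4 h. In that list the 6 and 19 h Ribo-Seq libraries had fewer reads in the codon frame than those of the other test conditions. They also had a larger share in 5′ untranslated regions. How this bears on density and on its ratio to RNA was not tested.

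Translational efficiency (TE), log2 of Ribo-Seq over RNA-Seq FPKM, differed little from the control for most of the 10, and density mainly went with RNA at 6 h. In the control TE ran from -0.80 for HSP90B1 to 1.12 for SDF2L1, a level that also carries how much of each transcript is coding sequence, since both assays were scaled to the whole transcript. Only 1 of the 10 was called higher in TE at 2 h (HSPA5, 1.53-fold, log2 change 0.61, counting SE 0.024), against 5.39% of tested genes, and this value fell below 1.5-fold once the length trend (log2 change 0.55), the median of tested genes (0.57) or the 2 most abundant Ribo-Seq transcripts (0.48) were taken out. At 4 and 6 h none was, against 9.24% and 13.3%, and at 19 h SDF2L1 was (1.62-fold, 0.70, counting SE 0.11), against 9%. HSPA5 at 2 h and SDF2L1 at 19 h had RNA near the control level (1.02-fold and 1.05-fold) with density at 1.57-fold and 1.70-fold, and the next values in TE were HSPA5 at 19 h (1.47-fold) and XBP1 at 4 h (1.44-fold, log2 change 0.53, counting SE 0.068). DNAJC3 and DNAJB9 stood on the other side, with TE changes of -0.41 and -0.32 at 6 h and -0.44 and -0.34 at 19 h, and none of the 10 was 1.5-fold lower at any time, against 1.78%, 0.713%, 12.3% and 15.6% of tested genes at 2, 4, 6 and 19 h. The median TE change of the 10 was 0.22, 0.029, 0.098 and 0.097, beside 0.045, 0.18, 0.0021 and -0.067 for all tested genes.

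The profile most like that of HSPA5 belonged to HYOU1, which encodes GRP170, the nucleotide exchange factor of BiP. Likeness was the Euclidean distance between log2 FPKM over the 10 libraries, centred within each assay, and the nearest of 7014 genes were HYOU1 (0.39), GOLGB1 (0.59), ARMCX1 (0.61), SDF2L1 (0.68) and MIA3 (0.75), against a median distance of 1.87. HYOU1 RNA was 51.3, 51.6, 50.9, 93.7 and 50.3 FPKM and its ribosome density 39.2, 61.7, 41.3, 112 and 70.9 FPKM. Like HSPA5, it had RNA at the control level through 4 h, a high 6 h library, and a density that was high at 2 h, low at 4 h and highest at 6 h. GOLGB1 encodes the Golgi tether giantin and MIA3 encodes TANGO1, which loads collagen for export from the ER. MIA3 RNA was 10.8, 9.77, 9.40, 16.2 and 13.4 FPKM, with a density of 3.55, 6.87, 3.85, 9.13 and 8.41 FPKM. Both GOLGB1 and MIA3 were under 5 FPKM of density in the control and at 4 h. They were tested only through the libraries where their density was high. Among the 10 genes PDIA4 (rank 15), CALR (24) and HSP90B1 (36) were next nearest after SDF2L1, and HERPUD1 (2239) and XBP1 (3314) were the farthest.

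**Figure D3:**
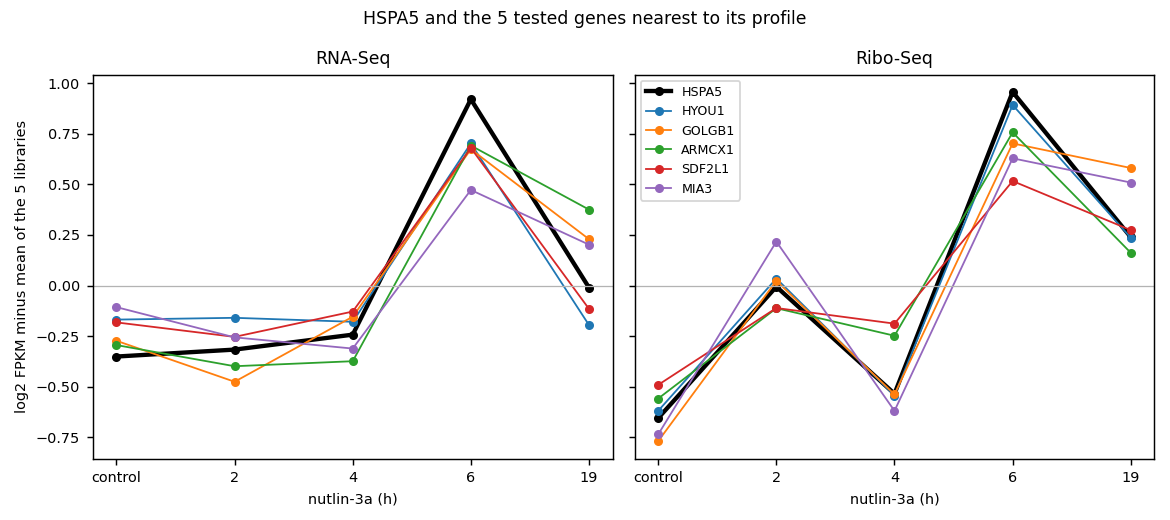
Log2 FPKM, centred on the mean of the 5 libraries of each assay, for HSPA5 (thick black line) and the 5 tested genes nearest to it, with times evenly spaced and 1 library per point. In RNA-Seq each of the 6 genes is highest at 6 h, and in Ribo-Seq each is higher at 2 h than in the control and highest at 6 h.

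The wider pathway was followed in 8 lists of 92 genes, none of them among the 10, of which 86 were tested. In RNA 3, 5, 13 and 9 of the 86 were at least 1.5-fold higher at 2, 4, 6 and 19 h, where 2.08%, 3.51%, 5.74% and 7.13% of tested genes were, and none was lower, where 0.214%, 3.58%, 11.6% and 14.6% were. The count of genes higher in RNA stood farthest above the share of all tested genes at 6 h, with RNA medians of -0.040, 0.0046, 0.28 and 0.17. In ribosome density 10, 10, 26 and 24 of the 86 were called higher, against 6.96%, 10.4%, 15% and 15% of tested genes. In density 1, 0, 4 and 7 were called lower, against 2.72%, 3.26%, 19% and 29.8%. Of the 8 lists the ER Hsp70 partners had the highest RNA median at 6 h (0.50), with 3 of 9 called higher then, where 5.74% of tested genes were, and none at 2 or 4 h. These 3 were HYOU1 (1.83-fold), MANF, a secreted factor that binds BiP (1.55-fold), and DNAJB11, the J-domain protein ERdj3 (1.54-fold). SIL1, a further exchange factor of BiP, was the 1 gene of this list called at 19 h, by 1.62-fold, and is named after its value was seen.

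**Figure D4:**
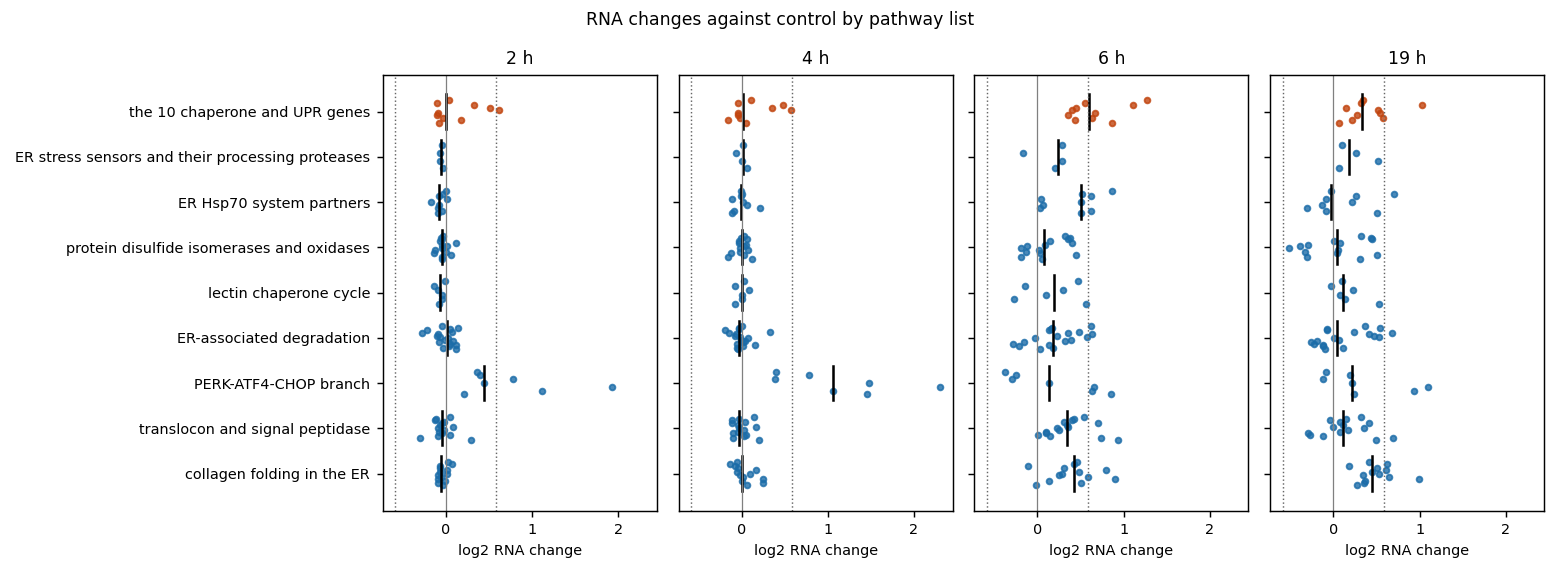
Log2 RNA change against the control for the 10 genes (orange) and for the tested genes of the 8 pathway lists (blue) at 2, 4, 6 and 19 h, 1 point per gene, with black bars at list medians and dotted lines at 1.5-fold. The PERK-ATF4-CHOP branch is highest at 4 h (median 1.07), whereas the 10 genes (median 0.59) and the ER Hsp70 partners (median 0.50) are highest at 6 h.

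The PERK-ATF4-CHOP branch had its highest RNA median at 4 h. The name is that of the list, and whether PERK or ER stress lay behind its values was not tested. In RNA 3, 5, 3 and 2 of its 7 tested genes were called higher at 2, 4, 6 and 19 h, against 2.08%, 3.51%, 5.74% and 7.13% of tested genes, with medians of 0.45, 1.07, 0.13 and 0.21, and in ribosome density all 7 were called at 4 h (median 1.35), against 10.4%. The 3 called at 6 h were CEBPB, CHAC1 and ASNS, with log2 changes of 0.63, 0.66 and 0.86. ATF4 RNA was 150.4, 194, 199, 116 and 142 FPKM, so that 2 and 4 h lay above the control and 6 h below it (log2 change -0.38). DDIT3 RNA was 10.8, 14.2, 18.5, 9.08 and 12.3 FPKM, with a density of 5.97, 9.80, 20.6, 5.86 and 4.36 FPKM, highest at 4 h in both. CHAC1, a glutathione-degrading enzyme, had the largest RNA change of its tested genes (7.58 FPKM in the control and 37.4 FPKM at 4 h), followed at 4 h by TRIB3, a pseudokinase induced by CHOP (5.96 to 16.6 FPKM), and ASNS, asparagine synthetase (14.0 to 38.5 FPKM). ATF3, a stress-induced transcription factor of the list that was not among the tested genes, had RNA of 0.454 FPKM in the control and 4.78, 4.59, 1.28 and 1.23 FPKM at 2, 4, 6 and 19 h.

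Among the sensors and their processing proteases, none of the 4 tested genes (ATF6, ATF6B, MBTPS1 and MBTPS2) was called in RNA at any time. In ribosome density 2 of these 4 were called higher at 19 h, against 15% of tested genes. ATF6 RNA was 14.2, 13.8, 14.4, 17.3 and 15.3 FPKM, all within 1.5-fold of the control. ERN1 and EIF2AK3 were not tested because their ribosome density stayed under 5 FPKM. ERN1 RNA was 2.21, 4.65, 5.10, 3.36 and 3.83 FPKM, 2.11-fold and 2.31-fold at 2 and 4 h (log2 changes 1.07 and 1.21, each with a counting SE of 0.12), so that it was highest at 2 and 4 h. EIF2AK3 RNA was 6.33, 7.47, 6.20, 9.02 and 8.48 FPKM, highest at 6 h.

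The other folding lists differed in how far they went with the 10 genes at 6 h. None of 14 tested PDIs and oxidases was called in RNA at any time, including P4HB, the founding PDI (566, 555, 578, 710.0 and 705 FPKM), and PDIA3, or ERp57, the partner of calreticulin and calnexin (183, 176, 181, 237 and 247 FPKM). In ribosome density 4 of these 14 were called higher and 2 lower at 6 h, against 15% and 19% of tested genes. CANX, the membrane lectin calnexin, had RNA at 283, 282, 288, 391 and 303 FPKM, 1.38-fold at 6 h and close to the control at 19 h, where the related CALR was 1.49-fold. Of 18 tested ERAD genes 2 were called higher in RNA at 6 h, against 5.74% of tested genes, EDEM3, a mannosidase that marks glycoproteins for degradation (1.55-fold), and SEL1L, the adaptor of the ubiquitin ligase HRD1 (1.53-fold), and EDEM2 was the 1 called at 19 h (1.61-fold). In the translocon and signal peptidase list 3 of 15 were called at 6 h, against the same 5.74%, SERP1, a translocon-associated stress protein (1.91-fold), SEC11C, a signal peptidase subunit (1.67-fold), and SSR1, a translocon-associated protein (1.63-fold), and all 15 were above 0 (median 0.34). In the collagen folding list 2 of 13 were called at 6 h, against 5.74% of tested genes, and 4 at 19 h, against 7.13%, with medians of 0.43 and 0.45 at these times. Its leading genes at 19 h were the prolyl hydroxylase subunits P4HA2 (2.00-fold, from 46.7 to 93.2 FPKM) and P4HA1 (1.57-fold) and the prolyl isomerase FKBP7 (1.54-fold), while SERPINH1, the collagen chaperone HSP47, was 1.37-fold at 6 h and 1.33-fold at 19 h.

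Of the genes outside the 10 that carried an ERSE, 8 were tested. CRELD2, CANX and SERP1 of these are also in the pathway lists above, so the 8 are not a set apart from the ER folding genes. The RNA log2 change of the 8 at 6 h ran from 0.097 (SYNPO) to 0.99 (TRIM5). All 8 were above 0 with a median of 0.42, against -0.0024 for all tested genes, and 2 (TRIM5 and SERP1) were called higher against 5.74% of tested genes. At 2 and 4 h none was called in RNA, with medians of -0.0076 and -0.0077. When genes with an ERSE-II were added, 17 tested genes outside the 10 had an RNA median of 0.15 at 6 h. Of these 17, 3 were called higher and 2 lower, so that the all-positive RNA values did not extend to the ERSE-II genes. In ribosome density at 6 h 7 of the 8 ERSE genes were above 0. Of the 8, 4 were called higher and 1 lower in density, against 15% and 19% of tested genes. Promoters were matched by symbol for 5806 of the 7015 tested genes (82.8%), and these genes were looked up after the values of the 10 were known.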

How the data were processed

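RNA-Seq and Ribo-Seq of BJ fibroblasts (a control and 4 nutlin-3a times, 1 library each per assay) were analysed from 2 tables of FPKM deposited by the authors. Per the labels and the study's methods, reads were aligned with Bowtie (version not given in the sources used here; hg19) to 1 protein-coding Ensembl transcript per gene and unique reads were kept. The methods state coding-sequence reads for Ribo-Seq, whereas the column names say total, which was not settled. The stated floor of 1 FPKM had not been applied in the files and was applied here.

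Genes were tested if they reached 5 FPKM in both assays, in 1 library or more of each (7015). Log2 changes are against the control of the same assay, and a gene was called at 1.5-fold. With 1 library per group no p-value was computed. The FPKM spacing gave library totals, transcript lengths and whole reads for 7007 tested genes (99.9%), and the counting SE is the square root of the summed inverse reads over ln 2. It covers counting only, since PCR copies could not be told apart. The recovery was tested on simulated data. Alternatives were a pseudocount of 1 FPKM, a floor of 5 FPKM, centring on the tested median, the 2 h library as baseline, removal of the length trend or of the 2 most abundant Ribo-Seq transcripts, and cut-offs of 2-fold or a multiple of the local SD.

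The genes, pathway lists, named-gene rule and motifs were chosen with earlier results of these data known. Named were the 10 genes, up to 3 called genes with the largest RNA change per list at its time of most calls, 10 fixed genes of the pathway, CDKN1A and MDM2, and the 5 genes nearest to HSPA5. Promoters were RefSeq windows matched by symbol, and no protein sequence was used here. Python 3.11.15, numpy 2.4.6, pandas 2.3.3, numba 0.67.0 and matplotlib 3.10.9 were used.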

Additional observations from a re-analysis of the deposited data

Results flagged for a closer look

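Some of the 10 genes stood below the control at one time and above it at another, each side by more than its 95% counting interval, and were picked out for that. With 1 library per time the differences were not tested. In RNA the log2 change at 6 h exceeded that at 2 h by 0.65 for HSP90B1, 0.76 for PDIA4, 0.46 for PDIA6 and 0.66 for CALR, the 2 h changes lying between -0.10 (PDIA6) and -0.032 (CALR). The median of tested genes at 2 h was -0.045, and centred on it the CALR change became 0.014, so that its sign depended on the scaling. HSP90B1 (-0.051), PDIA4 (-0.040) and PDIA6 (-0.054) stayed below 0, though PDIA4 no longer by more than its 95% counting interval (counting SE 0.023). For DNAJC3 RNA the 6 h change exceeded the 4 h change by 0.59. Its 4 h change of -0.16 became -0.086 when centred (counting SE 0.075), which is also within its 95% counting interval.

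In ribosome density the lower time was 4 h for each gene. The difference was 0.73 for HSP90B1 and 0.43 for PDIA6 (6 h minus 4 h) and 0.97 for PDIA4 (19 h minus 4 h). In TE the 2 h change exceeded the 4 h change by 0.46 for HSP90B1 and by 0.30 for PDIA6.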

How the results depend on the processing

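A pseudocount of 1 FPKM, a floor of 5 FPKM and removal of the length trend left the medians and counts of the 10 genes close to their values and were not run on the pathway lists. No called value of the 10 changed sign under any alternative, though without the length trend SDF2L1 took the place of HSPA5 among those called at 2 h. Centred on the median of tested genes, the RNA medians of the 10 became 0.091 at 4 h and 0.40 at 19 h, the density medians 0.011 at 4 h and 0.76 at 19 h and the TE median -0.15 at 4 h. Of the 10, 1 was then called higher in RNA at 4 h, 3 in RNA at 19 h, 0 in TE at 2 h and 2 in TE at 19 h, and 4 pathway genes were lower in density at 19 h.

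Against the 2 h library in place of the control, the RNA median was 0.66 at 6 h. The density medians were -0.13, 0.31 and 0.18 and the TE medians -0.17, -0.26 and -0.14 at 4, 6 and 19 h. Called higher were 3 of the 10 in RNA at 19 h, 0 in density at 4 h and 1 at 19 h, 1 in TE at 4 h (with 1 lower) and 0 in TE at 19 h. Of the pathway genes 2 were higher in RNA at 4 h, 4 lower at 6 h and 2 lower at 19 h. In density 2 were lower at 4 h, and 11 and 10 were higher at 6 and 19 h (26 and 24 against the control). Some called RNA values of pathway genes changed sign against this library, those of CHAC1 becoming -1.27 and -0.83 at 6 and 19 h (0.66 and 1.10 against the control) and those of CEBPB -0.047, -0.48 and -0.18 at 4, 6 and 19 h (1.07, 0.63 and 0.93 against the control).

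Without the 2 most abundant Ribo-Seq transcripts the density medians were 0.21, -0.0497 and 0.58 and the TE medians 0.090, -0.13 and -0.026 at 2, 4 and 6 h, with 0 of the 10 called higher in density at 2 h, 1 at 4 h and 0 in TE at 2 h. That setting was not run on the pathway lists either. At 2-fold 0 of the 10 were called higher in RNA at 2 h and 2 at 6 h, 0, 0, 2 and 0 in density at 2, 4, 6 and 19 h, and 0 in TE at 2 and 19 h. Of the pathway genes 0 and 1 were then higher in RNA at 6 and 19 h, 2, 5, 8 and 9 higher in density at the 4 times, and 0, 1 and 2 lower in density at 2, 6 and 19 h. For the settings other than the sliding cut-off the share of tested genes called was not worked out, so their counts stand without it. The sliding cut-off called 2, 1, 1 and 0 of the 10 higher in RNA at the 4 times, against 3.35%, 3.51%, 1.63% and 1.61% of tested genes. In density it called 0, 1, 1 and 0, against 4.83%, 6.22%, 2.62% and 1.91%. In TE it called 1 and 0 at 4 and 19 h, against 12.1% and 2.55%. The cause of these shifts was not tested beyond what each setting takes out. No paired analysis was possible because each group held 1 library.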

Other observations

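The lectin cycle, which adds and trims the glucose that calnexin and calreticulin read, had genes called in ribosome density and in TE and none in RNA. None of its 6 tested genes was called in RNA at any time, with a median RNA log2 change at 6 h of 0.20 against -0.0024 for all tested genes. In ribosome density 3, 0, 4 and 4 were at least 1.5-fold higher at 2, 4, 6 and 19 h, where 6.96%, 10.4%, 15% and 15% of tested genes were, with medians of 0.59, -0.14, 0.69 and 0.77. In TE 4, 0, 4 and 4 were, against 5.39%, 9.24%, 13.3% and 9% of tested genes. CANX was 1.38-fold in RNA at 6 h, with TE changes of -0.20 and -0.071 at 6 and 19 h. The 3 called in density at 2 h, named after their values were seen, were UGGT1, the folding sensor that puts glucose back (7.54, 12.4, 6.66, 12.7 and 13.1 FPKM), and GANAB (189, 295, 177, 311 and 328 FPKM) and PRKCSH (237, 378, 257, 376 and 399.7 FPKM), the subunits of glucosidase II. High values at 2 h, values near the control at 4 h and high values again at 6 and 19 h were the density pattern of HSPA5 and HYOU1 as well. Taking out the 2 most abundant Ribo-Seq transcripts lowered the 2 h density median of the 10 from 0.34 to 0.21. It was not run on the pathway lists, and neither was removal of the trend over transcript length. Per doubling of length that trend was 0.15, 0.12 and 0.17 in density and 0.11, 0.17 and 0.15 in TE at 2, 6 and 19 h. How many density and TE calls of the lectin cycle would remain under either setting was therefore not tested.

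Higher density at 2 h than at 4 h was found for 8 of the 9 fibroblast markers, all but THY1, and for 41.8% of tested genes. Among these markers were the cytoskeletal VIM (5214 and 3831 FPKM) and the receptor PDGFRB (46.9 and 32.5 FPKM) as well as the secreted collagens. The trend over transcript length was not removed for the markers. COL1A1 stood at 1063, 1992, 1070 and 3984 FPKM of density in the control and at 2, 4 and 6 h and 5262 FPKM at 19 h, and COL1A2 at 1341, 2544, 1156, 3849 and 5124 FPKM. Their RNA at 2 and 4 h was below the control (1558 and 1634 against 1642 FPKM for COL1A1), and at 19 h it was 2923 FPKM for COL1A1 and 3011 FPKM for COL1A2. The translocon and signal peptidase list, also part of the secretory route, had density medians of -0.24 at 2 h and -0.32 at 19 h, beside 0.016 and -0.19 for all tested genes. At 19 h 3 of its 15 genes were lower and 1 higher, where 29.8% of tested genes were lower and 15% higher.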
